A study of Mus musculus with 9 samples.

Results

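Crypt stem cell markers are genes whose RNA or protein is used to find or purify the stem cells at the base of intestinal crypts. The 10 genes described here, Lgr5, Olfm4, Ascl2, Smoc2, Sox9, Prom1, Lrig1, Msi1, Bmi1 and Cd44, were taken by symbol, and each matched 1 of the 54838 Ensembl mouse gene identifiers of the deposited tables. The study deleted Mettl3, the catalytic subunit of the complex that writes the RNA modification m6A, in mouse small intestinal organoids and asked how cell death follows. The donor animals, C57BL/6 mice with the genotype Vil-CreERT2;Mettl3 fl/fl, gave crypts that were grown into organoids in medium with EGF, Noggin and R-spondin1. They received 500 nM 4-OHT or its solvent EtOH for 2 days, and DMSO or Nec-1, an inhibitor of the kinase RIPK1, for 5 days. RNA sequencing covered 7 libraries in 4 groups. The 4-OHT Nec-1 group has 1 library, and the groups EtOH DMSO, 4-OHT DMSO and EtOH Nec-1 have 2 libraries apiece.

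All groups carried both the floxed alleles and the Cre transgene, which the Villin promoter drives in gut epithelium and 4-OHT activates. No group without Cre received 4-OHT, so the deletion and the drug cannot be told apart. Each organoid donor was a male mouse of 2 to 4 months by the study's methods, which give Nec-1 as 10 µM where the legend of the experiment gives 5 µM. The labels do not say whether the replicates were separate cultures or animals, so the p-values measure only the spread between these libraries, which may be technical.

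Stem cells of the small intestine sit between Paneth cells at the crypt base and divide under Wnt signals that R-spondins amplify. R-spondins bind Lgr4, Lgr5 and Lgr6 and thereby protect Wnt receptors from the ubiquitin ligases Rnf43 and Znrf3. Lgr5, Olfm4, Ascl2 and Smoc2 mark the cycling crypt base columnar cells, whereas Bmi1 and Lrig1 were proposed as markers of other stem cell pools, and Sox9, Prom1, Msi1 and Cd44 reach beyond the stem cells into progenitors or Paneth cells.

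Values are FPKM, which are scaled to transcript length and library size. Levels of different genes within a library can thus be set side by side, while differences between libraries also depend on the scaling, which was varied. FPKM summed to between 450207 and 498712 per library, 11559 to 12038 genes reached 1 FPKM, and the depth behind single values is unknown beyond a rough range of 0.853 to 1.03 times that of EtOH DMSO replicate 1. The libraries labelled 4-OHT did not hold less Mettl3 RNA. It stood at 3.72 and 4.14 FPKM in 4-OHT DMSO, 3.36 in 4-OHT Nec-1, and 2.70 and 2.71 in EtOH DMSO (2.41 and 2.47 with Nec-1), a limma log2 difference of 0.41 between 4-OHT DMSO and EtOH DMSO (SE 0.098, adjusted p = 0.0231). These values cover the whole gene and do not show the excision, so each direction between EtOH and 4-OHT rests on the labels of the libraries. Of 12 markers of immune, stromal, endothelial and neural cells, 11 were under 1 FPKM in every library and the list summed to 1.03 to 2.23 FPKM, while 7 epithelial markers such as Epcam and Vil1 summed to 3142 to 4708.

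Differences below are in log2(FPKM + 1), tested with limma over the 12702 genes that reached 1 FPKM in at least 2 libraries, with Benjamini-Hochberg adjustment over all of them and a threshold of 0.05. All 10 markers passed this filter. Lgr5 passed only through its 2 EtOH DMSO libraries, so it could enter the test only by being higher there. Ascl2 passed only through DMSO libraries, so against Nec-1 it could enter only by being high on the DMSO side. The pseudocount makes the differences of Lgr5, Ascl2 and Msi1, which lie near 1 FPKM, smaller than the ratios of their FPKM.

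RefSeq promoter sequences of the files' assembly (GRCm38.p6, which mm10 also names) were at hand for 6 of the 10 markers. The 250 bases upstream of the start of Ascl2 (chr7:142969265-142969514, minus strand), Olfm4 (chr14:80000052-80000301, plus strand) and Cd44 (chr2:102901666-102901915, minus strand) are shown, because these 3 markers had the widest spread over the 7 libraries, with a ratio of highest to lowest FPKM of 13.5, 7.12 and 7.16. Sequences run 5′ to 3′ and capitals mark TATAA, the core of the TATA box.
Ascl2: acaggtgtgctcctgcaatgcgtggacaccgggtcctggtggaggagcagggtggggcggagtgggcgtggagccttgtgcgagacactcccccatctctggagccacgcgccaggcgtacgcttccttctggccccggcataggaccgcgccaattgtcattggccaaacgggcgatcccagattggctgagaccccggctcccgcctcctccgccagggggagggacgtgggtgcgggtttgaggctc
Olfm4: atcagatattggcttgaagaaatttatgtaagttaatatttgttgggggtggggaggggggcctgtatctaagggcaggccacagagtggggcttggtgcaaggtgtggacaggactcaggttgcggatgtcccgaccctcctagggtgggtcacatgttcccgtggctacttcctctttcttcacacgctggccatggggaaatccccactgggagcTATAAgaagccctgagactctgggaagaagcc
Cd44: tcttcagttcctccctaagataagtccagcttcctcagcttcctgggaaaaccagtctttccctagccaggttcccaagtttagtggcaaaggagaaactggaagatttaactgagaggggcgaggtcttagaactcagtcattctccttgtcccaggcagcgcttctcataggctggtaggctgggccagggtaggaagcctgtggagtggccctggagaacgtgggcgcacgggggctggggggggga
The Ascl2 window was rich in GC (67.6%, against a median of 52.4% over all 32817 promoters), and those of Olfm4 (54%) and Cd44 (56.4%) lay nearer to that median. TATAA was searched on both strands (reverse complement TTATA). It was found in 1 of the 7 marker promoters, that of Olfm4, 32 bases before the start, and 22.8% of all promoters hold it. The letters CTTTGA, core of the sites of the TCF/LEF factors that carry Wnt signals (reverse complement TCAAAG), were in none of the 7 marker promoters and in 13.8% of all promoters. Both motifs were chosen after the expression values had been seen, and a missing match says only that these letters are not in this window.

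In EtOH DMSO organoids, the baseline, the markers spanned from about 1 to over 20 FPKM. Olfm4, a secreted glycoprotein, and Prom1 were the most abundant, with means of 22.9 ± 2.04 and 22.3 ± 0.847 FPKM (SD, n = 2), and their libraries overlapped. Lrig1 (14.0 ± 2.62), Smoc2 (12.0 ± 0.188) and Sox9 (6.65 ± 1.42) followed without overlap between neighbours (SD, n = 2). Bmi1 (4.08 ± 0.327) and Cd44 (3.96 ± 0.151) could not be ordered, Ascl2 lay below both (2.34 ± 0.510), and Lgr5 (1.39 ± 0.183) and Msi1 (1.25 ± 0.164) overlapped at the bottom (SD, n = 2).

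The order differed between groups. Cd44 was the seventh marker by mean level in EtOH DMSO and the first in 4-OHT DMSO, where its libraries overlapped those of Prom1. Olfm4 was first in EtOH DMSO and seventh in the 4-OHT Nec-1 library. Ascl2 was the lowest of the markers with Nec-1 on either background, below Lgr5 and Msi1 without overlap in EtOH Nec-1.

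**Figure D1:**
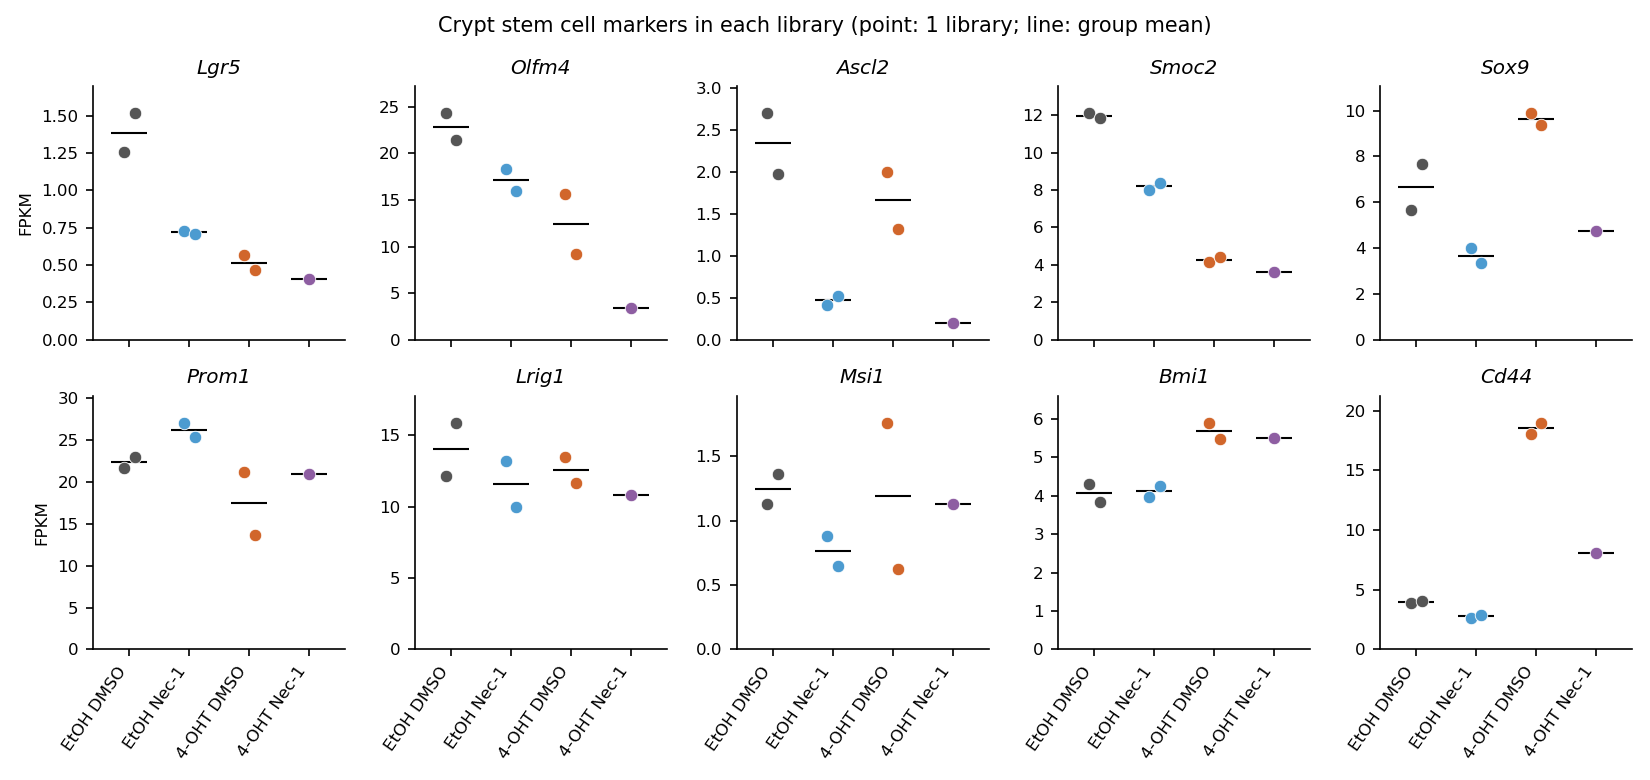
FPKM of each marker (vertical axis, linear from 0, own scale per gene) in the 4 groups, with 1 point per library and a line at the group mean. Lgr5 and Smoc2 were highest in EtOH DMSO, Cd44 stood at 18.0 and 19.0 FPKM in 4-OHT DMSO against 3.85 and 4.06 in EtOH DMSO, and Ascl2 was under 0.53 FPKM in all 3 Nec-1 libraries.

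The comparison of 4-OHT DMSO with EtOH DMSO asks how the markers differ after 4-OHT without Nec-1. Lgr5, Olfm4 and Smoc2 fell, Cd44 and Bmi1 rose, and the other 5 markers did not pass the test. Changes were common across the table: limma called 41.2% of all genes tested, 24.5% higher and 16.7% lower, so 5 of 10 markers called is near the share of all genes. Without Lgr5, 2 of 9 were lower and 2 higher. The criterion of the study's methods, an unadjusted p under 0.05 and a change of at least 1 log2 unit, took Cd44 and Smoc2 and 10.7% of all genes. In 3 markers both 4-OHT libraries lay above both EtOH libraries and in 4 below, as in 40.7% and 30.8% of all genes. The median difference of the 10 markers was -0.23, beside 0.077 for all genes. The organoids were sequenced in bulk, so fewer cells of a type and less RNA per cell cannot be told apart here.

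Lgr5 (ENSMUSG00000020140, chr10:115450314-115587780), the R-spondin receptor that defines crypt base columnar cells, stood at 1.26 and 1.52 FPKM in EtOH DMSO and at 0.565 and 0.468 in 4-OHT DMSO. Both 4-OHT libraries lay below both EtOH libraries. The ratio of the means was 2.69, and the log2 difference was -0.65 (SE 0.13, limma adjusted p = 0.0128).

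Smoc2 (ENSMUSG00000023886, chr17:14279490-14404790), a secreted matricellular protein enriched in Lgr5-positive cells, was at 12.1 and 11.8 FPKM in EtOH DMSO and at 4.13 and 4.40 in 4-OHT DMSO. The replicates lay close together in each group and the groups were far apart. Its fall of 2.81-fold in mean FPKM was a log2 difference of -1.30 (SE 0.085, limma adjusted p = 0.000573).

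Olfm4 (ENSMUSG00000022026, chr14:80000302-80023141), whose RNA is among the most abundant in crypt base columnar cells, was at 24.3 and 21.4 FPKM in EtOH DMSO and at 15.7 and 9.22 in 4-OHT DMSO. The groups did not overlap, but the 4-OHT libraries differed from each other by more than the EtOH libraries did. The log2 difference was -0.87 (SE 0.24, limma adjusted p = 0.0349). This call was lost with no filter on low values (limma adjusted p = 0.116) and with only the 4 libraries of the comparison (limma adjusted p = 0.0637). It was also lost without either EtOH DMSO library (differences of -0.78 and -0.96) or either EtOH Nec-1 library. Without 4-OHT DMSO replicate 2 the difference was -0.51.

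Cd44 (ENSMUSG00000005087, chr2:102811141-102901669), a hyaluronan receptor at the cell surface and a Wnt target in crypts, went the other way. It was at 3.85 and 4.06 FPKM in EtOH DMSO and at 18.0 and 19.0 in 4-OHT DMSO. The log2 difference of 1.98 (SE 0.089, limma adjusted p = 0.000321) was the largest of the 10 markers in this comparison, and both 4-OHT libraries were above every library of the other groups. Bmi1 (ENSMUSG00000026739, chr2:18677018-18686629), a Polycomb repressor subunit, was at 4.31 and 3.85 FPKM in EtOH DMSO and at 5.90 and 5.47 in 4-OHT DMSO, a log2 difference of 0.40 (SE 0.10, limma adjusted p = 0.0268). The Bmi1 call was lost with each library centred on its median (0.24, limma adjusted p = 0.124), with upper quartile scaling (limma adjusted p = 0.103), with only the 4 libraries of the comparison (limma adjusted p = 0.0624) and in 5 of 7 fits that left out 1 library. These were the fits without EtOH DMSO replicate 2, either EtOH Nec-1 library or either 4-OHT DMSO library (limma adjusted p between 0.0538 and 0.0960).

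Sox9 and Ascl2 are transcription factors of the crypt base. Sox9 (ENSMUSG00000000567, chr11:112782210-112787757), also needed to make Paneth cells, was at 5.64 and 7.65 FPKM in EtOH DMSO and at 9.88 and 9.36 in 4-OHT DMSO, above both EtOH libraries. Its log2 difference of 0.49 (95% confidence interval 0.10 to 0.87) just missed the threshold (limma adjusted p = 0.0527). Ascl2 (ENSMUSG00000009248, chr7:142966822-142969264), a basic helix-loop-helix factor that controls the crypt base columnar programme, was at 2.70 and 1.98 FPKM in EtOH DMSO and at 2.00 and 1.32 in 4-OHT DMSO. These groups overlapped, and the log2 difference of -0.33 had an interval from -0.80 to 0.14 (limma adjusted p = 0.207).

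The remaining 3 markers did not pass the test, and the 4-OHT DMSO replicates of Prom1 and Msi1 lay far apart. Prom1 (ENSMUSG00000029086, chr5:43993621-44102047), a pentaspan membrane protein, was at 21.7 and 22.9 FPKM in EtOH DMSO and at 21.2 and 13.7 in 4-OHT DMSO, a log2 difference of -0.37 (interval -0.86 to 0.12, limma adjusted p = 0.186). Lrig1 (ENSMUSG00000030029, chr6:94604529-94700298), which restrains ErbB receptors, was at 12.2 and 15.9 FPKM in EtOH DMSO and at 13.5 and 11.7 in 4-OHT DMSO, inside the range of the controls or just below it. Msi1 (ENSMUSG00000054256, chr5:115359059-115455698), an RNA-binding protein, held both the highest and the lowest of its 7 values in 4-OHT DMSO, 1.76 and 0.624 FPKM, around 1.13 and 1.36 in EtOH DMSO. The 95% confidence interval of the difference was -0.59 to 0.32 for Lrig1 and -0.75 to 0.58 for Msi1.

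The scale of the whole table bears on these values. When the median of each library was set to the same value, the median difference of all genes went from 0.077 to -0.080 and the split of calls went from 3117 higher and 2120 lower to 2213 higher and 3187 lower. Under it the 3 lower markers were called at -0.81 for Lgr5, -1.03 for Olfm4 and -1.46 for Smoc2, and Cd44 was called at 1.82 (limma, Benjamini-Hochberg). Each of the 10 markers kept its direction under median centring and upper quartile scaling.

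Nec-1 in EtOH organoids asks what the inhibitor does without 4-OHT. The largest difference was that of Ascl2, which lay 4.97-fold below the controls in mean FPKM, and the other markers of the crypt base columnar cells leaned lower, but no marker passed the test. limma called 28 genes in all (0.22% of those tested, 0.0472% as lower), none of them a marker. At an unadjusted p under 0.05, 5 of the 10 markers were lower (Smoc2, Ascl2, Sox9, Cd44 and Lgr5), where 10.4% of all genes were lower by that rule. Ascl2 and Lgr5 passed the filter only through DMSO libraries, where they were high. Smoc2, Sox9 and Cd44 reached 1 FPKM in every library. In 7 markers both Nec-1 libraries lay below both DMSO libraries, as in 39.1% of all genes. Without Lgr5 it was 6 of 9, Ascl2 among them. In 1, Prom1, both Nec-1 libraries lay above, as in 10.5%. The median of the markers was -0.40, and that of all genes -0.094. With each library centred on its median, that of all genes was 0.0048. Ascl2 then stood at -1.08, Lgr5 at -0.37 and Cd44 at -0.30, each nearer 0 than without centring, and no marker was called.

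Ascl2 was at 2.70 and 1.98 FPKM in EtOH DMSO and at 0.415 and 0.525 in EtOH Nec-1. The groups did not overlap, and the ratio of the means was 4.97. Both EtOH Nec-1 values lay under 1 FPKM, where counting error is widest, and Ascl2 passed the filter only through DMSO libraries. The log2 difference of -1.18 had a 95% confidence interval of -1.64 to -0.71, and an unadjusted p of 0.00103 became an adjusted p of 0.130 in limma over 12702 genes. By the study's criterion, Ascl2 was the 1 marker counted, where 0.709% of all genes were.

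Lgr5 was at 0.729 and 0.710 FPKM with Nec-1, a log2 difference of -0.47 (interval -0.80 to -0.15, limma adjusted p = 0.280). For Smoc2 the values were 8.01 and 8.39 FPKM, a difference of -0.50 (interval -0.71 to -0.28, limma adjusted p = 0.140). Sox9 stood at 3.99 and 3.36 FPKM and differed by -0.70 (limma adjusted p = 0.210). Replicates of these 3 genes lay close together in EtOH Nec-1, and below both controls.

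Cd44 was at 2.65 and 2.88 FPKM with Nec-1 (log2 difference -0.40, limma adjusted p = 0.217). Olfm4 was at 18.3 and 16.0 FPKM, and its interval of -0.99 to 0.20 included 0. Msi1 lay lower in both libraries, at 0.880 and 0.649 FPKM, with an interval of -1.02 to 0.32. Prom1 was the exception in direction, at 27.0 and 25.3 FPKM, with a difference of 0.22 and an interval of -0.27 to 0.71. Lrig1 (13.2 and 9.997 FPKM) and Bmi1 (3.98 and 4.26) overlapped the controls, and Bmi1 had the smallest difference of the 10, 0.011 (limma adjusted p = 0.981).

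**Figure D2:**
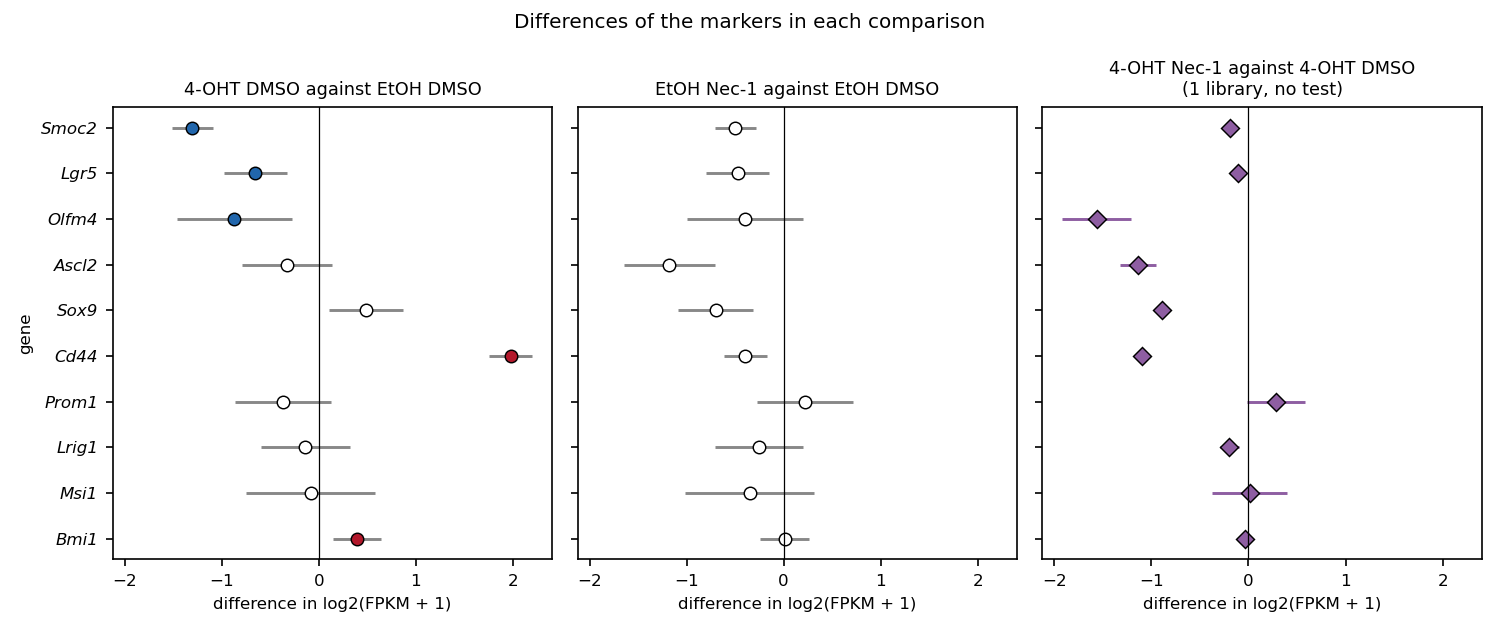
Difference in log2(FPKM + 1) for each marker in 3 comparisons. In the left and middle panels bars are limma 95% confidence intervals and filled circles passed an adjusted p under 0.05 (red higher, blue lower). In the right panel diamonds are the 4-OHT Nec-1 library minus the 4-OHT DMSO mean, and bars join the differences from each of the 2 DMSO libraries. On the left 5 markers are filled, in the middle none, and Olfm4, Ascl2, Cd44 and Sox9 lie farthest below 0 on the right.

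The 4-OHT Nec-1 group holds 1 library, so its differences have no replicate check and no test. It was compared with 4-OHT DMSO, which shares libraries with the first comparison, and the counts below are of genes that differed from each DMSO library by 1 log2 unit or more. Olfm4 and Cd44 were counted as lower and no marker as higher, where this rule took 1.91% of all genes, 1.15% lower and 0.756% higher. In all, 7 of the 10 markers lay below both DMSO libraries and 0 above both, where 49.3% of all genes lay below and 25.5% above. With each library centred on its median these counts were 5 below and 2 above, beside 31.8% and 42.3% of all genes, and the median of all genes moved from -0.081 to 0.033.

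Olfm4 was at 3.42 FPKM in 4-OHT Nec-1, below 15.7 and 9.22 in 4-OHT DMSO. The difference was -1.56, and it was -1.92 and -1.21 from each DMSO library. This was the lowest Olfm4 value of the 7 libraries, 6.70-fold below the EtOH DMSO mean.

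Ascl2 was at 0.199 FPKM, below 2.00 and 1.32 in 4-OHT DMSO. The ratio to the 4-OHT DMSO mean was 8.34, the widest of the 10 markers in this comparison, and 11.7 to the EtOH DMSO mean. On the log2(FPKM + 1) scale the difference was -1.14, and -1.32 and -0.95 from each DMSO library, so Ascl2 missed the count against 1 of them. With a pseudocount of 0.1 or 0.25 it was counted. The value is well under 1 FPKM, where counting error is widest, and the count of fragments behind it is unknown.

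Cd44 was at 8.10 FPKM, between the 4-OHT DMSO libraries (18.0 and 19.0) and the EtOH DMSO libraries (3.85 and 4.06). The difference from 4-OHT DMSO was -1.10, and after median centring -0.99, which no longer met the count. Sox9 was at 4.73 FPKM, below both 4-OHT DMSO libraries (9.88 and 9.36) by 0.89 on the log2 scale and below both EtOH DMSO libraries as well.

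Lgr5 (0.408 FPKM) and Smoc2 (3.61 FPKM), which fell with 4-OHT, were not back at their EtOH DMSO levels in this library. They lay -0.11 (0.0079 after median centring) and -0.19 from the 4-OHT DMSO means, and both were at the lowest of their 7 values. Bmi1 (5.52 FPKM), Prom1 (20.9 FPKM) and Msi1 (1.13 FPKM) fell within the span of the 4-OHT DMSO libraries. Lrig1 (10.8 FPKM) lay just below it, at -0.20.

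Set against EtOH Nec-1, the 4-OHT Nec-1 library gives the difference between 4-OHT and EtOH under the inhibitor, again without a test. Cd44 lay 1.27 above and Olfm4 2.04 below on the log2 scale, past 1 log2 unit from each library, where that rule took 5.9% of all genes, 4.09% higher and 1.82% lower. Cd44 (8.10 against 2.65 and 2.88 FPKM) and Smoc2 (3.61 against 8.01 and 8.39 FPKM, difference -0.998), like Olfm4, had the direction they had without Nec-1. In total 4 markers lay above both EtOH Nec-1 libraries and 5 below, beside 50.4% and 38% of all genes. With each library centred on its median these were 4 above and 6 below, beside 39% and 49.4% of all genes, and the genes past 1 log2 unit went from 519 higher and 231 lower to 350 and 331. Smoc2 was then past 1 log2 unit as well, at -1.14.

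The Nec-1 differences on both backgrounds can be set side by side, although they were not tested against each other. For Ascl2 they were -1.18 in EtOH and -1.14 in 4-OHT organoids, and for Sox9 -0.70 and -0.89. Olfm4 differed by -0.40 in EtOH and by -1.56 in 4-OHT organoids, and Cd44 by -0.40 and -1.10. For Lgr5 (-0.47 and -0.11) and Smoc2 (-0.50 and -0.19) the value was nearer 0 in 4-OHT organoids, where both began lower. No marker had its libraries on opposite sides on the 2 backgrounds.

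**Figure D3:**
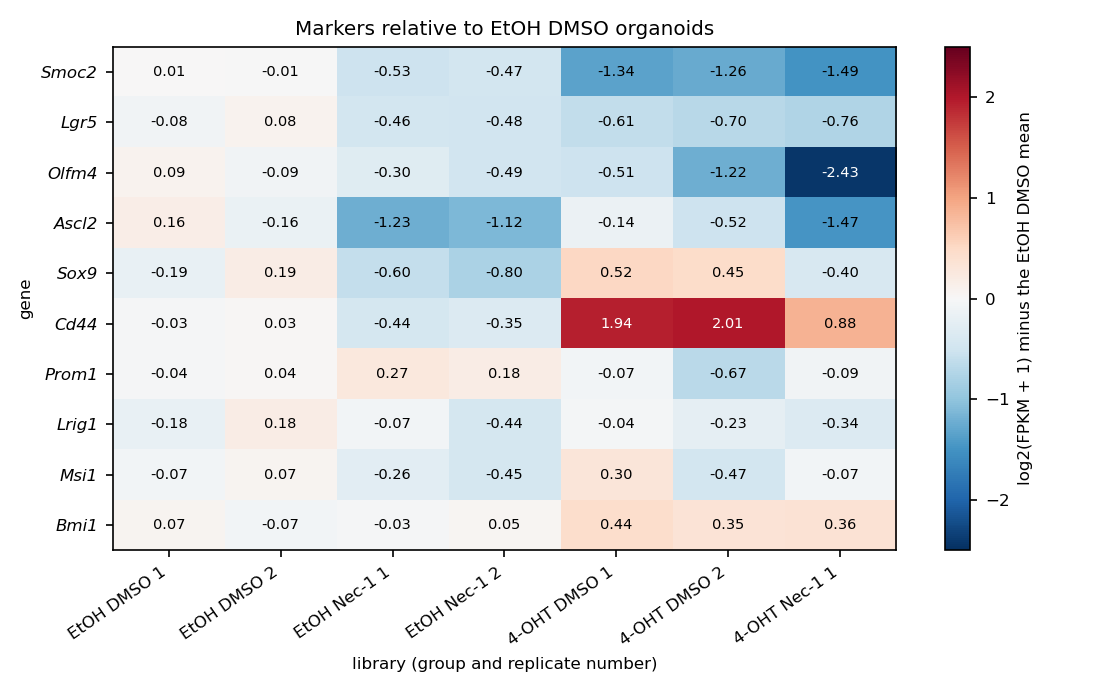
Each cell gives log2(FPKM + 1) of a marker (rows) in a library (columns) minus the mean of the EtOH DMSO libraries, from blue (lower) to red (higher). Ascl2 is blue in the 3 Nec-1 libraries (-1.23, -1.12 and -1.47), Smoc2 is lowest in the 3 libraries labelled 4-OHT, and Cd44 is red in those 3.

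Other genes of the stem cell compartment were taken from lists and described by counts. Of 18 further genes associated with crypt base columnar cells, 15 were tested in 4-OHT DMSO against EtOH DMSO, 4 were higher and 4 lower, beside 24.5% and 16.7% of all genes, with a median of 0.17 beside 0.077 for all genes. Gkn3, a secreted gastrokine of these cells, was at 3.09 and 1.98 FPKM in EtOH DMSO and at 0.192 and 0.324 in 4-OHT DMSO (log2 difference -1.48, SE 0.19, limma adjusted p = 0.00350). Like Lgr5, it passed the filter only through the EtOH DMSO libraries, so it could be tested only by being higher there. Soat1 (-0.59), Kcnq1 (-0.54) and Scn2b (-0.49) were lower too, and Scn2b reached 1 FPKM only in EtOH libraries. Cyp2e1 (1.24), Pdgfa (0.79), the ephrin receptor Ephb2 (0.71) and the water channel Aqp4 (0.69) were higher, Ephb2 no longer so after median centring. In EtOH Nec-1 none of the 15 was called, and 11 lay below both controls, as did 39.1% of all genes.

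Of 17 genes of Wnt and R-spondin signalling, 14 were tested, 3 were higher and 3 lower in 4-OHT DMSO, shares near the 24.5% and 16.7% of all genes, and the median was -0.026. Notum, a secreted Wnt deacylase, was at 1.33 and 1.82 FPKM in EtOH DMSO and at 0.0223 and 0.192 in 4-OHT DMSO (log2 difference -1.21, limma adjusted p = 0.00394), and it reached 1 FPKM only in EtOH libraries. The factor Tcf7 (-0.67) and the Wnt receptor ligase Rnf43 (-0.66) fell too. Sp5, a transcription factor and Wnt target, went the other way, from 0.834 and 0.578 to 4.43 and 3.75 FPKM (1.58, limma adjusted p = 0.00121), and it reached 1 FPKM only in libraries labelled 4-OHT. Notum and Sp5 therefore entered the test through the side on which they were high. Also higher were Znrf3 (0.56, not after median centring) and the second R-spondin receptor Lgr4 (0.26). Axin2, a widely used readout of Wnt signalling, was at 7.39 and 9.31 FPKM in EtOH DMSO and 6.71 and 5.84 in 4-OHT DMSO, a difference of -0.36 that did not pass (limma adjusted p = 0.0803).

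Among 6 genes of reserve and regenerating stem cells, 5 were tested, with 3 higher and 2 lower (24.5% and 16.7% of all genes). Ly6a, which encodes Sca-1, went from 20.9 and 12.1 FPKM in EtOH DMSO to 418 and 296 in 4-OHT DMSO (log2 difference 4.38, SE 0.31, limma adjusted p = 0.000697). Anxa1 (2.63) and the revival stem cell marker Clu (2.39) rose with it, while Hopx (-0.71) and the telomerase subunit Tert (-0.72) fell, Tert reaching 1 FPKM only in EtOH libraries. In the 4-OHT Nec-1 library Clu, Ly6a and Anxa1 were lower than in both 4-OHT DMSO libraries, with differences of -1.76, -1.38 and -1.22, as Cd44 was. The other 2 tested genes, Hopx and Tert, lay above both, by 0.17 each. Of all genes, 49.3% lay below both 4-OHT DMSO libraries and 25.5% above both, and 1.15% lay at least 1 log2 unit below each. These differences share the 4-OHT DMSO libraries in which Clu, Ly6a and Anxa1 were high. The 4-OHT Nec-1 group holds 1 library, so they were not tested.

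**Figure D4:**
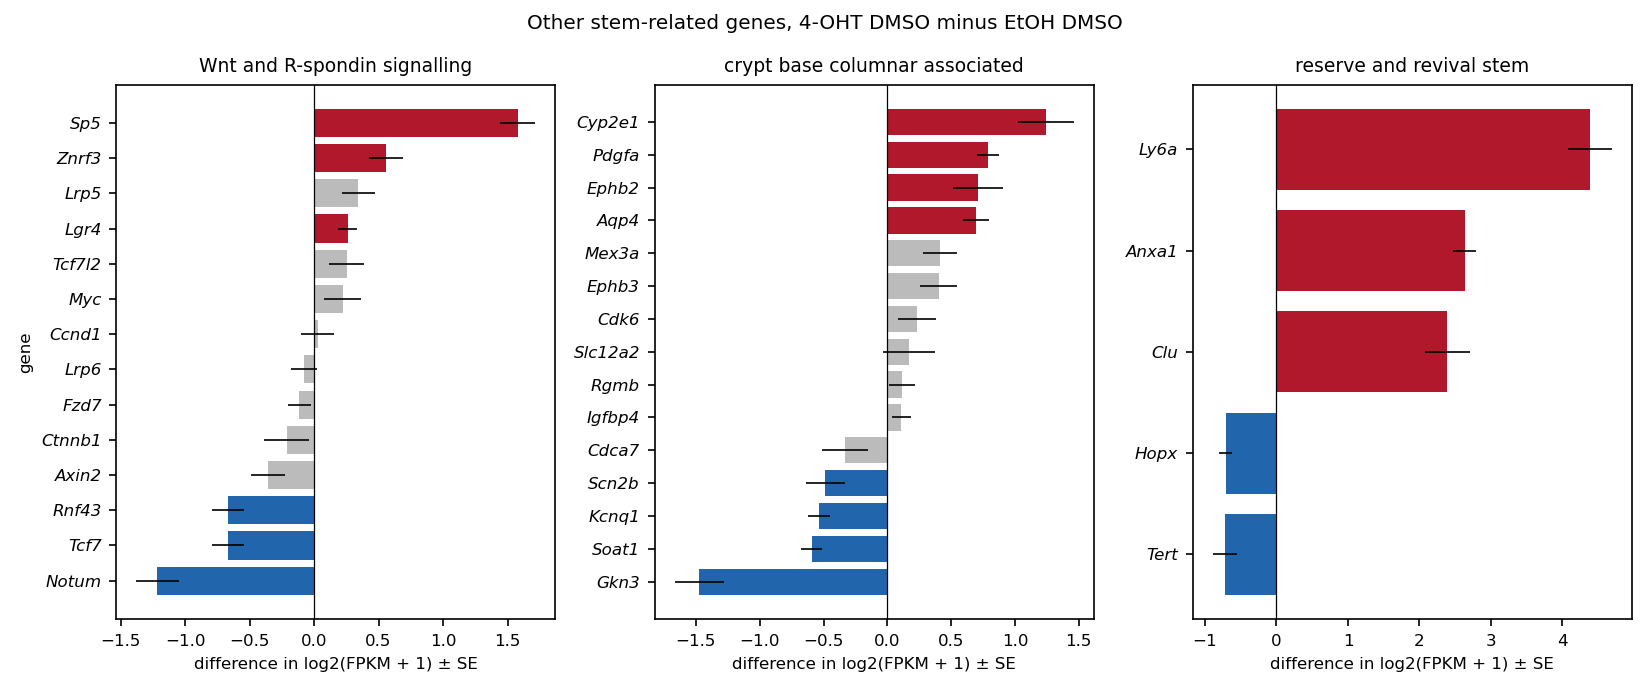
Difference in log2(FPKM + 1) between 4-OHT DMSO and EtOH DMSO (horizontal axis, own scale per panel) for the tested genes of 3 lists, with bars for the limma SE and colour for genes past an adjusted p under 0.05 (red higher, blue lower, grey not called). Each list holds genes on both sides of 0, from Notum (-1.21) to Sp5 (1.58), from Gkn3 (-1.48) to Cyp2e1 (1.24) and from Tert (-0.72) to Ly6a (4.38).

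Markers of other intestinal cell types were described as well, mostly in 4-OHT DMSO against EtOH DMSO. In EtOH Nec-1 no Paneth, goblet or enteroendocrine gene was called. There 1 enterocyte gene was called lower, beside 0.0472% of all genes. All 9 Paneth cell genes were higher in 4-OHT DMSO (median 1.38), and their summed level was 23473 to 23579 FPKM in 4-OHT DMSO, 8613 to 9493 in EtOH DMSO, 9872 to 10095 in EtOH Nec-1 and 17382 in 4-OHT Nec-1. None of them was at 0. Goblet cell genes (6 of 7 higher, median 1.10) and enteroendocrine genes (7 of 7 higher, median 1.03) moved alike, enterocyte genes split into 2 higher and 4 lower of 8, and no tuft cell gene reached the filter. Beside these lists, 24.5% of all genes were higher and 16.7% lower in 4-OHT DMSO, with a median of 0.077. The 10 markers summed to 89.2 to 92.5 FPKM in EtOH DMSO, 72.1 to 79.2 in EtOH Nec-1, 75.2 to 92.6 in 4-OHT DMSO and, with 4-OHT and Nec-1, 58.8.

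The 10 proliferation genes, among them Mki67 and Top2a, summed to 216 to 229 FPKM in EtOH DMSO, 185 to 189 in EtOH Nec-1, 179 to 208 in 4-OHT DMSO and, with 4-OHT and Nec-1, 153. In 4-OHT DMSO 1 was higher and 2 were lower, beside 24.5% and 16.7% of all genes. In EtOH Nec-1 none was called and 8 of the 10 lay below both controls (39.1% of all genes), with a median of -0.39 beside -0.094 for all genes. In 4-OHT Nec-1, 9 of 10 lay below both 4-OHT DMSO libraries (49.3% of all genes), with a median of -0.41 beside -0.081. The part of cell type makeup and of proliferation in the values of the stem cell markers was not tested.

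The genes nearest to Lgr5 and Olfm4 in pattern were found by the root mean square difference of log2(FPKM + 1) over the 7 libraries, after the mean of each gene was subtracted, among the other 12701 genes. Nearest to Lgr5 were Shmt1 (0.051), Kcnq1 (0.057), Ephb4 (0.057), ENSMUSG00000095041 (0.070) and Mapkapk2 (0.071). Kcnq1, a potassium channel already on the list of crypt base columnar genes, had EtOH DMSO values of 20.3 and 22.8 FPKM, EtOH Nec-1 values of 16.0 and 15.7, 4-OHT DMSO values of 14.3 and 14.7 and a 4-OHT Nec-1 value of 13.1, the same order of groups as Lgr5. Since the pseudocount compresses Lgr5, genes near it in this measure had smaller ratios than Lgr5 itself. Among the nearest to Olfm4 were Ino80d (0.30), Tnfsf10 (0.33), Gm45871 (0.34) and Etfbkmt (0.37), at distances several times those of the neighbours of Lgr5. The measure is not scaled to how far a gene varies. In the 4-OHT Nec-1 library Olfm4 lay -2.43 from its EtOH DMSO mean, and Lgr5 -0.76. Ino80d (0.140 FPKM) and Tnfsf10 (0.570 FPKM) were lowest in that single library, as Olfm4 was. Among the markers themselves the nearest pair was Lrig1 and Msi1 (0.20), and the farthest were Cd44 and Olfm4 (1.51). Neither Lrig1 nor Msi1 was called in any comparison, and genes that vary little lie near each other in this measure.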

How the data were processed

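RNA was sequenced from 7 organoid libraries, and the 2 ChIP samples for Atf3 were left aside (not analysed here). The authors deposited FPKM per Ensembl gene and library, made from reads of RNA libraries (NEBNext Ultra kit, Illumina HiSeq X) with HISAT2 2.1.0 and StringTie 1.3.3b on mm10, per the submitters' processing notes. The annotation is not given in the sources used here. Columns repeated between tables agreed to within 5e-06, 0 columns were left unmapped, and 54723 of 54838 identifiers matched a symbol. Coordinates come from RefSeq on GRCm38.p6, the assembly mm10 names.

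Values were taken as log2(FPKM + 1). The 12702 genes at or above 1 FPKM in 2 or more libraries were fitted with limma 3.58.1 (R 4.3.3) with a mean-variance trend, 1 mean per group over all 7 libraries, which left 3 residual degrees of freedom. The fit was tested on simulated data. The 4-OHT Nec-1 group has 1 library and no test, and its called genes lie at least 1 log2 unit beyond each library of the other group. Because both comparisons with EtOH DMSO use the same 2 libraries, and those with 4-OHT DMSO likewise, they are not independent. The markers and gene lists were chosen with earlier results of these data known. The genes named are the 10 markers, Mettl3, up to 5 called genes with the largest differences from each other list, and the 5 genes nearest in pattern to Lgr5 and to Olfm4. 1 item is not reported here. Beyond this rule, Soat1, Scn2b and Lgr4 were named because they were called, and Mki67 and Epcam as examples of their lists. Axin2 was named after its values were seen. Alternatives were scaling by the median or the upper quartile, limma fitted with no trend, pseudocounts of 0.1 and 0.25, no filter or 1 FPKM in every library, a fit of 4 libraries, a replicate block, the study's criterion, and leaving out single libraries. A filter on a mean of at least 0.5 FPKM was added after the data were seen.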

Additional observations from a re-analysis of the deposited data

Results flagged for a closer look

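No stem cell marker had an effect whose libraries lay on opposite sides in 2 conditions. Among genes of the other lists, 8 did for Nec-1, with the value in EtOH organoids first and that in 4-OHT organoids second, in log2(FPKM + 1). The Paneth cell genes Mmp7 (0.33 and -0.68), Ang4 (0.40 and -0.072) and Defa24 (0.18 and -0.50) and the goblet cell genes Clca1 (0.25 and -0.095) and Agr2 (0.41 and -0.27) were higher with Nec-1 in EtOH organoids and lower in 4-OHT organoids. Tcf7 (-0.40 and 0.56), Rnf43 (-0.25 and 0.20) and Aqp4 (-0.28 and 0.19) were lower in EtOH and higher in 4-OHT organoids. The count of 8 covers only the screened genes. Outside them, Lgr4 (-0.099 and 0.40) and Lrp6 (-0.23 and 0.060) were also lower in EtOH and higher in 4-OHT organoids. Of the screened genes, Tcf7 also differed in its 4-OHT effect, which was -0.67 under DMSO and 0.30 under Nec-1. Outside them, the 4-OHT effects of Soat1 (-0.59 and 0.052) and Fzd7 (-0.12 and 0.27) differed in the same way. The 4-OHT Nec-1 group holds 1 library, and none of these differences was tested.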

How the results depend on the processing

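In 4-OHT DMSO against EtOH DMSO, 5 markers were called. Cd44 and Smoc2 were called in every setting run, and Lgr5 in all but 3: without EtOH DMSO replicate 2, under the study's criterion, and with 1 FPKM in every library, where it was not fitted. Only the 4 libraries of the comparison gave 3 markers (Cd44, Lgr5, Smoc2), and the study's criterion 2 markers and 1364 genes in place of 5237. Leaving out 1 library gave 3 to 5 markers and 3628 to 5232 genes. Without EtOH DMSO replicate 2, Sox9 was called and Lgr5, Olfm4 and Bmi1 were not. Without 4-OHT DMSO replicate 1, Prom1 was called as lower. Lrig1 ranged from -0.32 to 0.042 with 1 library left out (above 0 without EtOH DMSO replicate 2), and Msi1 from -0.47 to 0.30 (above 0 without 4-OHT DMSO replicate 2).

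In EtOH Nec-1 against EtOH DMSO, 28 genes and 0 markers were called. Other counts were 43 genes with upper quartile scaling, 8 with no filter, 79 with only the 4 libraries, 90 genes and 1 marker (Ascl2) by the study's criterion, and 9 to 75 genes with 1 library left out, with 0 markers each time. Bmi1 ranged from -0.055 (without EtOH DMSO replicate 2) to 0.077 with 1 library left out, and was also below 0, at -0.028, without EtOH Nec-1 replicate 2.

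In 4-OHT Nec-1 against 4-OHT DMSO, 242 genes were counted: 460 and 400 with pseudocounts of 0.1 and 0.25, 136 with 1 FPKM in every library, and 437 to 755 without 1 DMSO library, with 2 to 3 markers. Median centring and upper quartile scaling left 1 marker (Olfm4). Against EtOH Nec-1, 750 genes became 1413 and 1246 with pseudocounts of 0.1 and 0.25, and 1001 to 1007 without 1 library, with 2 to 3 markers. The Nec-1 difference was lower in 4-OHT than in EtOH organoids for 4 markers, and for 4 to 8 with 1 library left out. Except where shown by construction (fewer genes or libraries), the cause was not tested.

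The values showed no pairing by replicate number: the correlations of replicate differences between groups were -0.040, 0.0065 and -0.012. Whether libraries with the same number share a culture or animal is not given by the labels. With the replicate block 4697 and 19 genes were called, with the same 5 markers and 0 markers. The 2 libraries per group, only 1 for 4-OHT Nec-1, and values near 1 FPKM for Lgr5, Ascl2 and Msi1 limit what these data can show.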
